A study of Mus musculus with 2 samples.

Results

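The genes described here were 10 transcription factors known from the neural crest, namely *Tfap2a*, *Tfap2b*, *Pax3*, *Msx1*, *Zic1*, *Foxd3*, *Snai2*, *Ets1*, *Sox5* and *Sox6*. They were picked by symbol, and all 10 were found among the 33207 genes of the count matrices. The question was how far their transcripts persisted in *Sox10*+ glial cells and in *Isl1*+ sensory neurons, and whether the levels differed between embryonic days E11.5 and E12.5.

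The cells came from mouse embryos of the genotype Egr2Cre/+; R26-Tomato, in which Cre made under the control of *Egr2* (*Krox20*) switches on Tomato in boundary cap cells (BCCs) and in every cell that descends from them. Dorsal root ganglia (DRGs), meninges and the dorsal and ventral roots were dissected, and Tomato+ cells were sorted and loaded for droplet single-cell RNA-seq. All cells carried the same alleles, and there was no untreated or mutant group. Each stage was 1 library made from pooled embryos of 1 litter, so stage, litter, library and depth cannot be told apart. No test across replicates was possible. All intervals printed are exact 95% intervals on counts or shares and cover counting error only.

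The E11.5 library held 1431 barcodes and 10287595 UMIs (unique molecular identifiers, each standing for 1 captured transcript). The E12.5 library held 3762 barcodes and 23460243 UMIs. After filtering, 830 cells with a median of 11574 UMIs were kept at E11.5 and 3495 cells with a median of 6137 UMIs at E12.5. The libraries shared 9 barcodes. Because the E11.5 cells were deeper, shares of cells with a transcript were compared after each cell had been thinned to 2000 UMIs. Levels are given as CPM, the UMIs of the gene per 1000000 UMIs of all cells of a class.

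Cells with a *Sox10* UMI and no *Isl1* UMI were called glia, and cells with *Isl1* and no *Sox10* were called neurons. Glia numbered 408 at E11.5 (49.2% of kept cells) and 1214 at E12.5 (34.7%). Neurons numbered 204 (24.6%) and 1337 (38.3%). A further 105 and 284 cells held both transcripts, and 113 and 660 held neither. Such a gate depends on depth, and the later library was shallower, so the gated shares do not measure a change between stages. The 12 glial markers of a fixed list summed to 3805 CPM in glia and 384 CPM in neurons at E11.5, and to 6822 and 505 CPM at E12.5. The 14 neuronal markers summed to 9861 CPM in neurons and 413 CPM in glia at E11.5, and to 12429 and 472 CPM at E12.5. The labels call the sorted cells boundary cap cells. *Prss56* or *Egr2*, which mark BCCs, had a UMI in 173 of the 408 glia at E11.5 and in 465 of the 1214 at E12.5, so most glia showed neither marker at this depth. Each library was also clustered with the 10 genes, *Sox10* and *Isl1* left out. Of the 204 neurons at E11.5, 41 lay in a neuron-like cluster, and most others lay in clusters with markers of neurogenic progenitors. At E12.5, 118 and 290 of the 1337 neurons lay in 2 neuron-like clusters, and most others in neurogenic ones. Levels in neurons thus describe cells of both kinds. Clusters with glial markers made up 48.8% of the kept cells in the earlier library and 47.7% in the later one, a smaller difference than in the gated shares of glia. They took in 21 of the 113 cells with neither transcript at E11.5, and 334 of the 660 such cells at E12.5. How far depth moved the gated shares was not tested. Clusters that carried mesenchymal, pericyte or myeloid markers are here called the outside cells. They numbered 61 at E11.5 and 259 in the E12.5 library, and they give the level at which a crest gene appeared in cells of another type. The sort thus also held such cells, among them 36 of a myeloid-like cluster at E12.5, and their descent from BCCs was not tested. The paper took only the cells it assigned to the BCC lineage into its joint analysis.

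The neural crest arises at the border of the neural plate, leaves the neural tube, and gives rise to sensory neurons, Schwann cell precursors (SCPs), satellite glia and boundary cap cells, among others. Border genes such as those of the AP-2, Pax, Msx and Zic families are switched on first. Specifiers such as *Foxd3*, *Snai2*, *Ets1* and *Sox10* follow and accompany delamination and migration. *Sox10* stays on in glia, while *Isl1* is a homeodomain factor of newborn sensory neurons.

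The genes lie on 8 mouse chromosomes. In GENCODE vM39 on GRCm39, *Tfap2a* is at chr13:40868778-40891852 and *Tfap2b* at chr1:19279138-19309069. *Pax3* is at chr1:78077904-78173771, *Msx1* at chr5:37977829-37981928 and *Zic1* at chr9:91240111-91247863. *Foxd3*, a gene of 1 exon, is at chr4:99544536-99546859, *Snai2* at chr16:14523425-14527252 and *Ets1* at chr9:32547517-32669116. The 2 long genes are *Sox5* at chr6:143774151-144727703 and *Sox6* at chr7:115070106-115638860, each with 15 exons in the annotation.

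The 250 bases before a listed start are shown for 4 genes. They are the AP-2 pair, whose levels moved together across clusters, and *Foxd3* and *Sox5*, which were far higher in glia than in neurons. The sequences are from RefSeq on GRCm38.p6 and read 5′ to 3′ on the strand of the gene. A listed start need not be the outer end of the gene. The *Sox5* window lies within the span given above for that gene, nearer its 3′ end, although the builds differ. Capitals mark matches, on either strand, to an AP-2 motif (GCCNNNGGC), a SOX motif (ACAANG) or an E-box (CANNTG).
Tfap2a, chr13:40734921-40735170, minus strand: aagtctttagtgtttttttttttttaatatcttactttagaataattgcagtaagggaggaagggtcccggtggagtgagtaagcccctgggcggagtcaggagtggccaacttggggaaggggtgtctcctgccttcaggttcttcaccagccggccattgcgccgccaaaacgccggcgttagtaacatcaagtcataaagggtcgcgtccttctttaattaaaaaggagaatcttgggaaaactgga
Tfap2b, chr1:19211804-19212053, plus strand: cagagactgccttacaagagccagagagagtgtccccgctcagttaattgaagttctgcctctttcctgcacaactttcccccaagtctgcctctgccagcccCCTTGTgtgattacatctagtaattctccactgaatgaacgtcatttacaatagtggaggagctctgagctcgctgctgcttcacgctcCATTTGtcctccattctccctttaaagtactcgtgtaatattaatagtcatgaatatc
Foxd3, chr4:99656049-99656298, plus strand: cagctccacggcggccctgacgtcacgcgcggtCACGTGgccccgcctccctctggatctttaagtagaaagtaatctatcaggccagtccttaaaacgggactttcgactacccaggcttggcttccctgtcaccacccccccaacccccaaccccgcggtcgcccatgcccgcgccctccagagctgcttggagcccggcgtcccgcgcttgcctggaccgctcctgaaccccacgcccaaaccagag
Sox5, chr6:143947107-143947356, minus strand: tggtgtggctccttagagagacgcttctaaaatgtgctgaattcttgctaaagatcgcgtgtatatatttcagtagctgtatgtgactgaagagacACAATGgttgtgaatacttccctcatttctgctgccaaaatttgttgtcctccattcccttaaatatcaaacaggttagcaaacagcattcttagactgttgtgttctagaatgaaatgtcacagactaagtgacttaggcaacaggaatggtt

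The *Tfap2a* window held none of the 3 motifs. The *Tfap2b* window held a SOX match starting 147 bases before the start and an E-box 58 bases before it. The *Foxd3* window held an E-box 217 bases before the start. The *Sox5* window held a SOX match 154 bases before its listed start, which lies inside the gene. Over the 7 of 10 genes with a listed promoter, 1 held the AP-2 motif, 3 the SOX motif and 5 the E-box. The shares over 32851 mouse promoters were 13.7%, 36.3% and 66.2%, so motifs this short are common. A match describes letters and not a bound site. *Pax3*, *Snai2* and *Ets1* had no entry in the promoter table.

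With a ratio of at least 2 as the threshold and at least 50 UMIs over both classes, 3 of the 7 compared genes were higher in glia at E11.5 (*Foxd3*, *Ets1* and *Sox5*) and 0 were higher in neurons. Over all 9608 genes compared at that stage, 15.9% were at least 2-fold higher in glia and 9.48% at least 2-fold higher in neurons. At E12.5, 4 of 8 compared genes were higher in glia (*Foxd3*, *Ets1*, *Sox5* and *Sox6*) and 0 in neurons, against 19.8% and 12.3% of 11967 genes. The median ratio of glia to neurons was 1.82 over the compared members at E11.5 and 2.77 in the E12.5 library, while it was 1.09 over all genes at either stage.

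**Figure D1:**
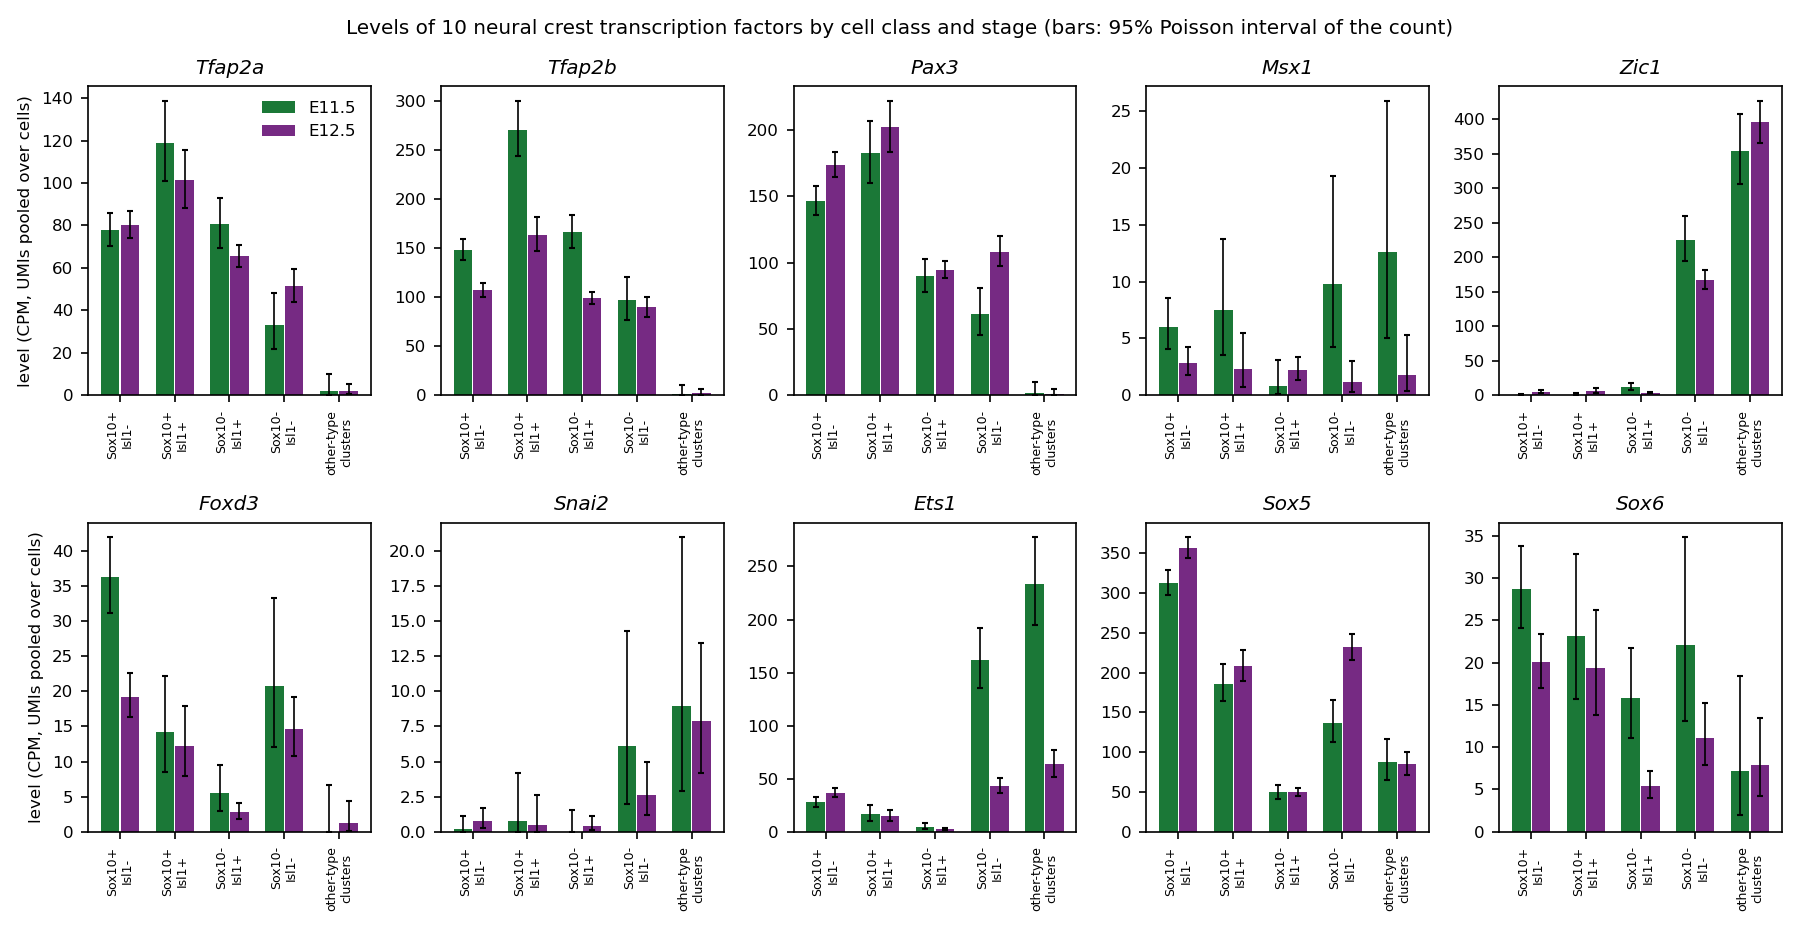
Level of each of the 10 genes (CPM, linear axes from 0 that differ between panels) in *Sox10*+ glia, cells with both transcripts, *Isl1*+ neurons, cells with neither and cells of the outside clusters, in green for E11.5 and purple for E12.5. Columns are pooled levels of 1 library and error bars exact 95% counting intervals. *Tfap2a*, *Tfap2b* and *Pax3* were at or above 65.4 CPM in glia and in neurons, *Foxd3*, *Ets1* and *Sox5* were lower in neurons than in glia, and *Zic1* was highest in the outside cells.

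Among the border genes, the AP-2 pair showed the least difference between glia and neurons. *Tfap2a* encodes AP-2α, which acts in crest induction. It stood at 77.9 CPM (70.4 to 86.1) in glia and 80.5 CPM (69.5 to 92.9) in neurons at E11.5, a ratio of 0.968 (0.811 to 1.16). At E12.5 the levels were 80.2 CPM (74.1 to 86.8) and 65.4 CPM (60.3 to 70.9), a ratio of 1.23 (1.09 to 1.37). The intervals overlapped at E11.5 and did not at E12.5, where the difference was small.

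*Tfap2b* encodes the related AP-2β. Its level was 148 CPM (138 to 159) in glia and 166 CPM (150 to 184) in neurons at E11.5, a ratio of 0.891 (0.787 to 1.01). At E12.5 it was 107 CPM (100.1 to 115) in glia and 98.9 CPM (92.5 to 106) in neurons, a ratio of 1.08 (0.986 to 1.19). The interval of the ratio included 1 at either stage. In thinned cells, *Tfap2b* was seen in 20.1% of glia and 33.8% of neurons at E11.5, and in 16.2% and 18.1% at E12.5. At E11.5 the share of cells thus leaned further toward neurons than the pooled level did. In the outside cells both AP-2 genes had at most 4 UMIs per library, or at most 2.42 CPM. The AP-2 levels in neurons were thus far above those in cells of other types.

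*Pax3*, a paired-box factor of the dorsal neural tube and crest, was also found in both classes but leaned toward glia. It stood at 146 CPM (136 to 157) in glia and 89.9 CPM (78.2 to 103) in neurons at E11.5, a ratio of 1.63 (1.40 to 1.91). At E12.5 the levels were 174 CPM (165 to 183) and 94.6 CPM (88.4 to 101), a ratio of 1.84 (1.69 to 2.005). Thinned cells with a *Pax3* UMI made up 27.0% of glia and 10.8% of neurons at E11.5, and 25.4% and 16.6% at E12.5. The outside cells held 1 *Pax3* UMI at E11.5 and 2 in the E12.5 library.

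*Msx1* and *Zic1* were rare in glia and in neurons. *Msx1*, a homeobox gene of the dorsal midline and crest, had 30 UMIs in glia and 2 in neurons at E11.5 and 22 and 20 UMIs at E12.5. In glia that is 6.01 CPM (4.05 to 8.58) and 2.81 CPM (1.76 to 4.25). Neurogenic clusters held 15 of all 50 *Msx1* UMIs at E11.5, at 5.58 CPM against 4.92 CPM in glia-like clusters. At E12.5 they held 28 of 51, at 4.05 against 1.84 CPM. *Zic1*, a zinc-finger gene of the neural plate border, had 2 UMIs in glia and 28 in neurons at E11.5, and 43 and 34 at E12.5. Most of these UMIs came from few cells. At E11.5, 19 of the 28 in neurons lay in 4 cells of the pericyte-like cluster. At E12.5, 36 of the 43 in glia lay in 13 cells of outside clusters and 32 of the 34 in neurons in 17 such cells. Without them, *Zic1* stood at 3.90 CPM in E11.5 neurons, 0.903 CPM in E12.5 glia and 0.224 CPM in E12.5 neurons.

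Of the specifiers, *Foxd3* and *Ets1* separated the classes and *Snai2* was too rare to compare. *Foxd3* encodes a forkhead factor that is required to maintain crest cells. It was at 36.3 CPM (31.2 to 41.9) in glia and 5.54 CPM (2.95 to 9.47) in neurons at E11.5, a ratio of 6.55 (3.73 to 12.5). At E12.5 it was at 19.3 CPM (16.3 to 22.6) and 2.76 CPM (1.79 to 4.08), a ratio of 6.97 (4.55 to 11.1). The intervals of the classes were apart at either stage. Thinned cells with *Foxd3* were 7.60% of glia and 2.45% of neurons at E11.5, where the outside cells held 0 UMIs in 61 cells, which allows up to 4.92%. At E12.5 they were 3.40% of glia, 0.310% of neurons and 0.408% of the outside cells. The E12.5 share over all neurons was thus not above that in cells of other types at this depth. Of the 13 *Foxd3* UMIs in E11.5 neurons, 7 lay in 8 cells of an unnamed shallow cluster, and without that cluster the level in neurons was 2.59 CPM.

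*Ets1*, an ETS factor of delaminating crest and of endothelium, stood at 27.8 CPM (23.4 to 32.9) in glia and 4.69 CPM (2.34 to 8.39) in neurons at E11.5, a ratio of 5.94 (3.22 to 12.2). At E12.5 it stood at 36.6 CPM (32.5 to 41.1) and 2.43 CPM (1.52 to 3.68), a ratio of 15.1 (9.76 to 24.4). Of the neuronal UMIs, 4 of 11 at E11.5 and 6 of 22 in the E12.5 library lay in cells of outside clusters. Without those cells the neuronal level was 3.03 and 1.79 CPM, and the ratio was 9.18 (4.34 to 23.3) and 20.2 (12.2 to 35.9). The glial level was thus several times the neuronal level in both libraries. *Snai2*, a zinc-finger factor of epithelial to mesenchymal transition, had 7 UMIs in all kept cells at E11.5 and 20 in the E12.5 library. Glia held 1 and 6 of them and neurons 0 and 4, and 0 UMIs in 204 neurons allow a share of cells with a UMI of up to 1.47%, counting 3 cells as the limit of a count of 0. That limits cells with a UMI and not cells expressing the gene.

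*Sox5* and *Sox6* encode SoxD factors, which lack a transactivation domain and act beside other Sox factors, in glia among other cells. *Sox5* stood at 313 CPM (297 to 328) in glia and 49.4 CPM (40.8 to 59.3) in neurons at E11.5, a ratio of 6.32 (5.23 to 7.70). At E12.5 the levels were 356 CPM (343 to 370) and 50.1 CPM (45.6 to 54.9), a ratio of 7.12 (6.45 to 7.88). A *Sox5* UMI was seen in 42.2% of thinned glia at E11.5 and 47.2% in the E12.5 library, against 9.80% and 9.45% of thinned neurons. The outside cells held *Sox5* at 88.1 and 84.8 CPM, above the neuronal level.

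*Sox6* was lower in neurons than in glia at either stage, with a wider gap at E12.5. Its levels were 28.6 CPM (24.1 to 33.7) in glia and 15.8 CPM (11.1 to 21.7) in neurons at E11.5, a ratio of 1.82 (1.26 to 2.68). At E12.5 they were 20.03 CPM (17.0 to 23.4) and 5.41 CPM (4.01 to 7.16), a ratio of 3.70 (2.67 to 5.21).

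**Figure D2:**
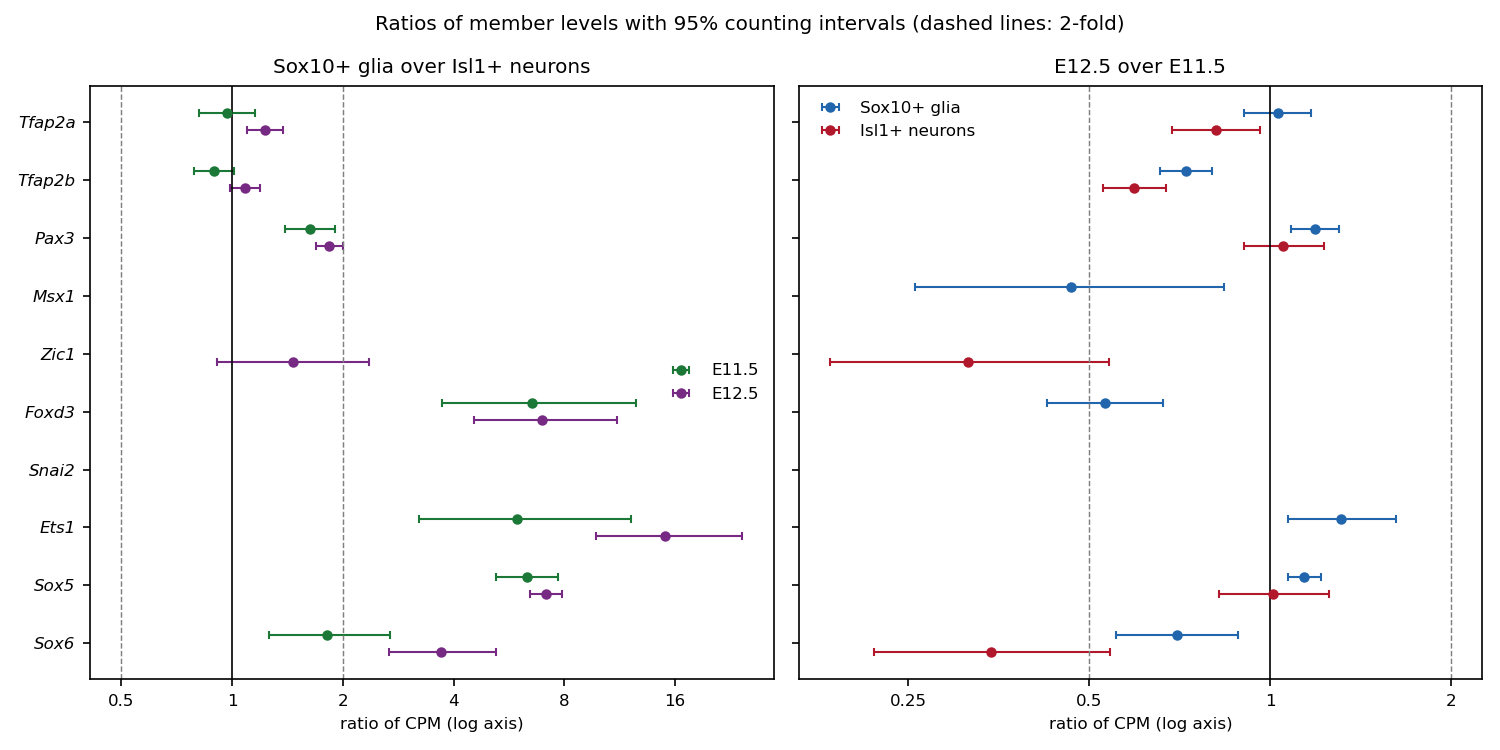
Ratio of levels (CPM over CPM, log axis, dashed lines at 2-fold) with its exact 95% counting interval for each gene with at least 50 UMIs over both classes, for glia over neurons at each stage and for E12.5 over E11.5 within glia and within neurons. *Foxd3*, *Ets1* and *Sox5* lay right of 2 for glia over neurons at either stage, and the AP-2 pair lay near 1.

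Cells with both *Sox10* and *Isl1* were not midway between glia and neurons for every gene. *Tfap2b* was higher in them than in either class. It reached 271 CPM (243 to 300) at E11.5, which was 1.83 times the glial level (1.61 to 2.07) and 1.63 times the neuronal level (1.41 to 1.88). At E12.5 it reached 163 CPM (147 to 182), 1.52 times glia (1.34 to 1.73) and 1.65 times neurons (1.46 to 1.87). *Tfap2a* was 1.52 times glia (1.26 to 1.84) at E11.5 and 1.26 times (1.08 to 1.48) at E12.5. Of glia, neurons and cells with both transcripts, the last thus had the highest pooled level of either AP-2 gene.

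*Pax3* in the cells with both transcripts was 1.25 times the glial level at E11.5 (1.07 to 1.44) and 1.16 times at E12.5 (1.04 to 1.30), and more than 2 times the neuronal level at either stage. *Foxd3*, *Ets1* and *Sox5* lay between the classes. *Sox5* was at 186 CPM at E11.5 and 208 CPM in the E12.5 library, or 0.595 (0.519 to 0.681) and 0.584 (0.527 to 0.646) of the glial level and 3.76 and 4.16 times the neuronal level. Cells with both transcripts had median depths of 12921 and 6847 UMIs, against 12479.5 and 6089.5 in glia and 11598 and 6475 in neurons. Doublets left after filtering would also hold both transcripts, and their share here was not tested.

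All kept cells were also read by cluster, whether or not they held *Sox10* or *Isl1*. At E11.5, 4 clusters of 405 cells were glia-like, 4 of 225 cells neurogenic progenitor-like and 1 of 48 cells neuron-like. At E12.5 the classes held 6 clusters of 1666 cells, 5 of 1131 and 2 of 439. Names rest on fixed marker lists read after clustering. The neurogenic class is not one of progenitors alone: 1 of its clusters at E11.5 (71 cells) and 2 at E12.5 (553 cells), here called mixed, met at least as many neuronal as neurogenic markers. The mixed cluster at E11.5 met 10 of the 14 neuronal markers beside 6 neurogenic ones. In neuron-like clusters the border genes were much lower than in *Isl1*+ neurons as a whole.

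*Pax3* stood at 150.3 CPM in glia-like clusters at E11.5, at 151 CPM in neurogenic clusters and at 18.2 CPM in the neuron-like cluster. At E12.5 the levels were 174, 170.03 and 12.1 CPM. The neurogenic level pools unlike clusters, since *Pax3* was 0.292 (0.202 to 0.409) of the glia-like level in the mixed clusters and 1.31 (1.15 to 1.48) in the others at E11.5. At E12.5 it was 0.467 (0.410 to 0.531) and 1.47 (1.36 to 1.59). Glia-like clusters exceeded neuron-like ones 8.27-fold (4.71 to 16.1) and 14.4-fold (10.6 to 19.9). *Pax3* was thus lower in clusters with many neuronal markers, mixed or neuron-like, than in glia-like ones.

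*Tfap2b* was highest in the neurogenic class at either stage, through its clusters that were not mixed. It stood at 151 CPM in glia-like, 256 CPM in neurogenic and 92.4 CPM in neuron-like clusters at E11.5. At E12.5 the levels were 108, 171 and 24.5 CPM. *Tfap2a* followed the same order, with 75.7, 112 and 42.4 CPM at E11.5 and 81.1, 93.2 and 35.8 CPM at E12.5. The ratio of neurogenic to glia-like clusters was 1.70 (1.53 to 1.88) and 1.57 (1.45 to 1.71) for *Tfap2b*, and 1.47 (1.26 to 1.72) and 1.15 (1.03 to 1.27) for *Tfap2a*. Without the mixed clusters it was 2.02 (1.81 to 2.25) and 2.23 (2.04 to 2.45) for *Tfap2b*, and in the mixed clusters 0.947 (0.771 to 1.15) and 0.892 (0.786 to 1.01).

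*Foxd3*, *Ets1* and *Sox5* were lower in the neurogenic clusters than in glia-like ones, most of all in the mixed clusters. *Foxd3* was below the glia-like level there, at 5.58 against 33.1 CPM at E11.5 and 4.63 against 20.8 CPM at E12.5. *Ets1* was at 5.21 against 27.4 CPM and at 1.59 against 35.4 CPM. *Sox5* was at 93.7 against 316 CPM and at 75.1 against 363 CPM. In the clusters that were not mixed, *Sox5* was 0.393 (0.341 to 0.451) and 0.343 (0.310 to 0.379) of the glia-like level. In the mixed ones it was 0.0673 and 0.0664. *Foxd3* was 0.224 and 0.356 in those not mixed and 0.0378 and 0.0847 in the mixed ones. *Ets1* was 0.270 and 0.0563 in those not mixed. In the mixed ones it had 0 UMIs at E11.5 and was 0.0332 at E12.5. *Pax3* and *Sox6*, which were also higher in glia than in neurons, were not low in the neurogenic clusters as a whole at E11.5. *Pax3* was near the glia-like level at either stage, as given above. The neurogenic level of *Sox6*, 29.4 CPM at E11.5, was 1.16 times the glia-like one (0.866 to 1.54), while at E12.5 it was 0.491 times (0.366 to 0.651). Without the mixed clusters it was 1.61 (1.20 to 2.14) and 0.938 (0.696 to 1.25) times.

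**Figure D3:**
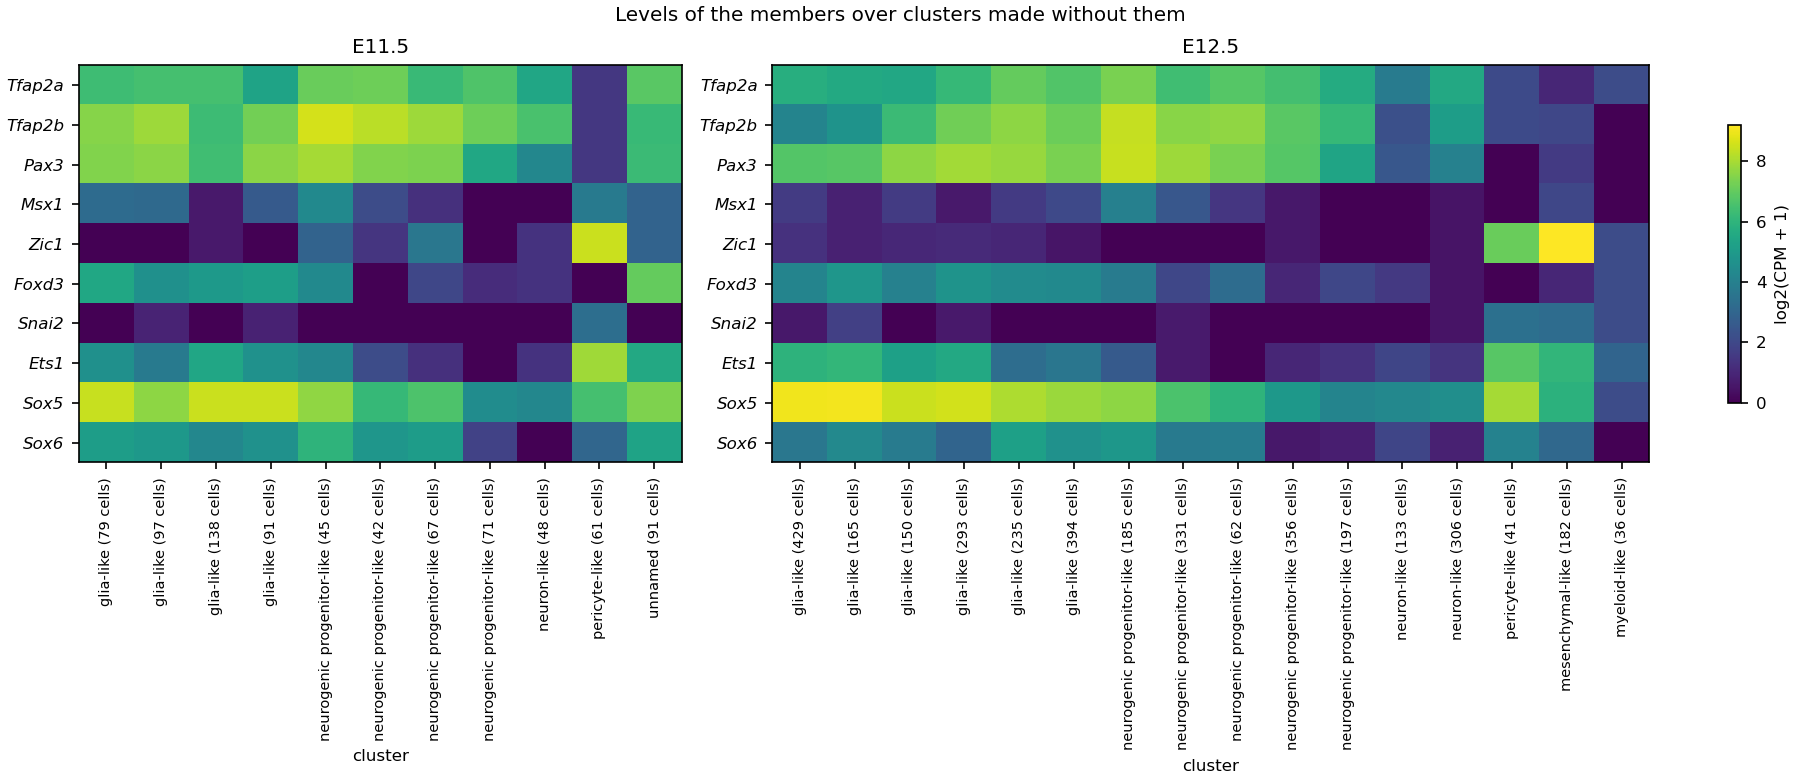
Level of each gene (colour, log2 of CPM plus 1) in every cluster of the E11.5 and E12.5 libraries, grouped by cluster name, with the number of cells. The AP-2 genes and *Pax3* were high in most glia-like and neurogenic clusters and lower in neuron-like ones, and *Zic1* was highest in the mesenchymal-like and pericyte-like clusters.

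Single clusters differed further. At E12.5, *Tfap2b* ranged over the neurogenic clusters from 71.5 to 337 CPM, and stood at 33.4 and 3.8 CPM in the neuron-like ones. *Pax3* ranged from 40.1 to 341 CPM in the former and stood at 15.3 and 4.7 CPM in the latter. The neurogenic cluster with the highest *Tfap2b* was also the one with the highest *Pax3* and, at 163 CPM, the highest *Tfap2a*. At E11.5 a neurogenic cluster of 45 cells held *Tfap2b* at 389 CPM, *Pax3* at 248 CPM and *Sox6* at 62.3 CPM. This cluster, counted among those not mixed, met 4 glial markers beside 3 neurogenic ones. It held 11 glia, 26 cells with both transcripts and 2 neurons.

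Among the 6 glia-like clusters at E12.5, the 2 clusters with *Prss56* among their 10 leading genes had the highest *Sox5*, at 520.04 and 510.2 CPM against a lowest level of 222 CPM, and the lowest *Tfap2b*, at 16.6 and 25.4 CPM against a highest level of 197 CPM. *Foxd3* varied less over the 6 clusters, from 15.3 to 27.7 CPM, and *Pax3* went from 106 to 245 CPM.

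Neurons were also ordered by the summed level of 6 genes of axons and synapses (*Nefl*, *Nefm*, *Stmn2*, *Stmn3*, *Gap43* and *Snap25*) and split into 3 equal groups, a choice made after values had been seen. Of the 204 and 1337 neurons, 192 and 1320 lay in glia-like, neurogenic or neuron-like clusters and were used. The groups held 64 cells each at E11.5 and 440 in the E12.5 library, with 14 and 101 cells lying within 10% of a boundary. The groups are ranges of a score and not cell types. *Pax3*, *Tfap2b*, *Sox5* and *Sox6* were lower in each higher group in both libraries. For *Sox5* and *Sox6*, however, the counting intervals of the middle and highest groups overlapped in both.

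*Pax3* went from 184 CPM in the lowest group through 79.4 to 22.2 CPM in the highest at E11.5, a ratio of lowest to highest of 8.32 (5.13 to 14.2). At E12.5 it went from 217 through 83.04 to 15.7 CPM, a ratio of 13.8 (10.4 to 18.4). The ratio was higher than those of *Tfap2a*, *Tfap2b* and *Sox5* at either stage. *Sox6* had still higher ratios on fewer UMIs, at 34.6 (5.75 to 1412) at E11.5 and 18.4 (5.87 to 92.9) at E12.5. *Msx1* at E12.5 had a ratio of 22.9 (3.59 to 957) on 17 and 1 UMIs. *Tfap2b* went from 253 through 169 to 95.7 CPM at E11.5 (ratio 2.65, 2.03 to 3.47) and from 201 through 98.0 to 27.0 CPM at E12.5 (ratio 7.45, 5.99 to 9.36).

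*Tfap2a* had no such order at E11.5, with 75.4, 113 and 64.2 CPM and a ratio of 1.17 (0.795 to 1.74). At E12.5 it was at 100.4, 74.6 and 34.03 CPM, a ratio of 2.95 (2.37 to 3.69). *Sox5* went from 87.5 through 33.8 to 23.3 CPM at E11.5 and from 113 through 26.7 to 21.7 CPM at E12.5. *Sox6* had 30 UMIs in the lowest, 6 in the middle and 1 in the highest group at E11.5, and 41, 5 and 3 UMIs at E12.5. *Foxd3* at E12.5 was at 5.68 CPM (3.18 to 9.37) in the lowest group and 1.12 CPM (0.306 to 2.88) in the highest, against 1.21 CPM (0.147 to 4.38) in the outside cells. For comparison, *Pou4f1*, a sensory neuron factor, had ratios of 1.22 and 1.25, and *Neurog1*, which drives sensory neurogenesis, had ratios of 3.18 and 9.90.

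**Figure D4:**
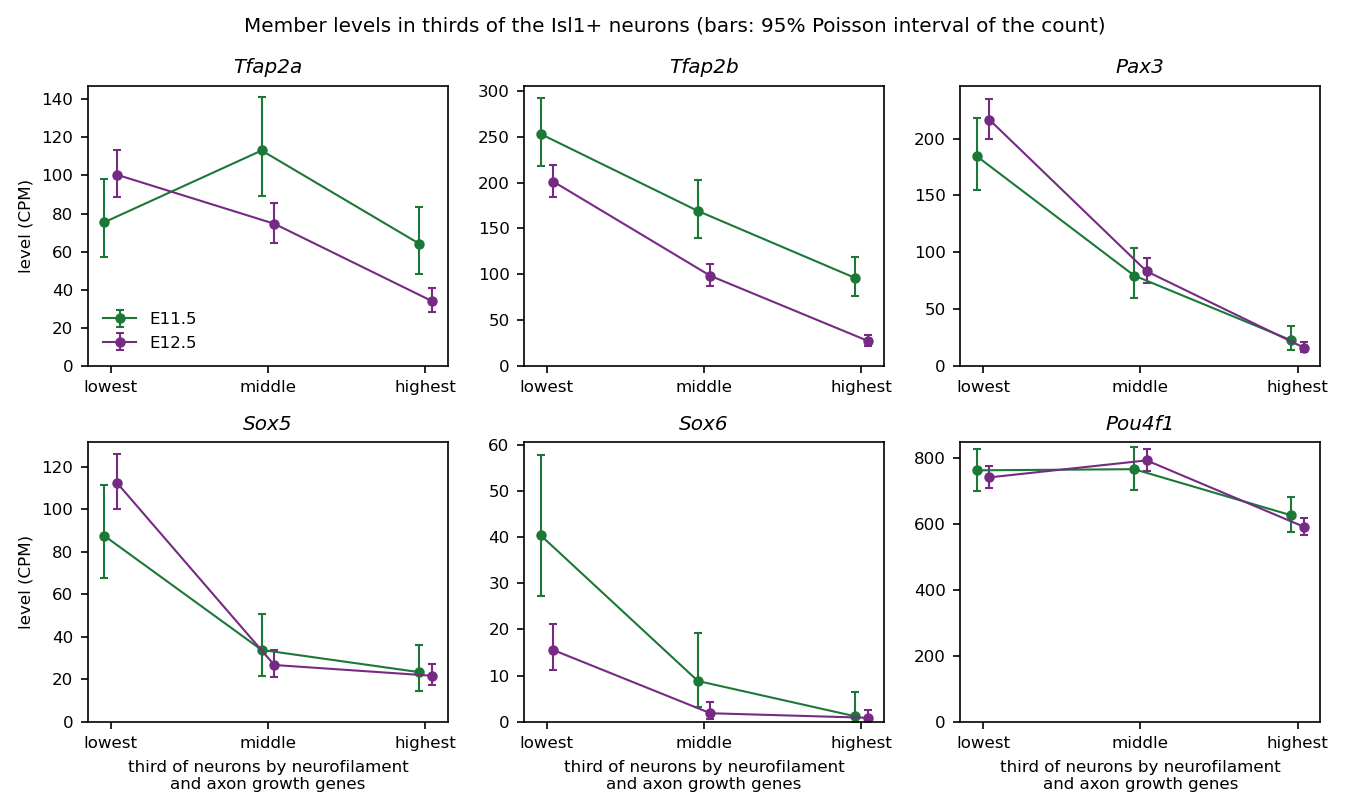
Level (CPM, axes from 0) of *Tfap2a*, *Tfap2b*, *Pax3*, *Sox5* and *Sox6*, with *Pou4f1* for comparison, in *Isl1*+ neurons split into 3 equal groups by the summed level of 6 axonal and synaptic genes, in green for E11.5 and purple for E12.5; bars are exact 95% counting intervals. *Pax3*, *Tfap2b*, *Sox5* and *Sox6* went down from the lowest to the highest group in both libraries.

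Between the stages, few of the 10 genes differed by 2-fold or more. In glia 1 of 8 compared genes was lower at E12.5 (*Msx1*) and 0 were higher, while over 11046 genes 1.13% were at least 2-fold lower and 6.34% at least 2-fold higher. In neurons 2 of 6 were lower (*Zic1* and *Sox6*) and 0 were higher, against 1.67% and 6.03% of 10527 genes. The median ratio of E12.5 to E11.5 over the compared members was 0.877 in glia and 0.704 in neurons, while over all genes it was 1.07 and 1.04. The count of *Zic1* in neurons rested on the few outside-cluster cells given above. The make-up of the neurons also differed between the libraries. Neuron-like clusters held 41 of the 204 neurons at E11.5, and 118 and 290 of the 1337 at E12.5. How far this shift moved the neuronal stage ratios was not tested.

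*Foxd3* in glia was 0.531 (0.425 to 0.663) of its E11.5 level at E12.5, short of 2-fold by a small margin. Its thinned share went from 7.60% to 3.40%, and without thinning from 33.8% to 10.9%. The E11.5 level without the shallow unnamed cluster was 33.9 CPM, and the ratio was then 0.569. *Tfap2b* was lower at E12.5 in glia, at 0.725 (0.656 to 0.801) of its E11.5 level, and in neurons, at 0.595 (0.528 to 0.672). In neuron-like clusters it was 0.265 (0.189 to 0.375) of the E11.5 level.

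*Sox6* was 0.699 (0.554 to 0.883) of its E11.5 level in glia and 0.343 (0.220 to 0.541) in neurons. Over all cells of the neurogenic clusters, which are not neurons alone, *Sox6* went from 29.4 to 9.55 CPM. *Msx1* in glia was 0.467 (0.257 to 0.837) on 30 and 22 UMIs. In glia the interval of the ratio lay below 1 for these genes, *Foxd3*, *Tfap2b*, *Sox6* and *Msx1*.

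The other compared members held or gained in glia, where the median ratio over all genes was 1.07. *Tfap2a* was 1.03 (0.906 to 1.17) of its E11.5 level. *Sox5* was 1.14 (1.07 to 1.21), *Pax3* 1.19 (1.08 to 1.30) and *Ets1* 1.31 (1.07 to 1.62). In neurons *Pax3* was 1.05 (0.904 to 1.23) and *Sox5* 1.01 (0.824 to 1.25) of the E11.5 level, and *Tfap2a* was 0.812 (0.688 to 0.962).

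Within glia the genes were set against markers of BCCs and of neurogenesis. Glia with a *Prss56* or *Egr2* UMI had less of the AP-2 pair and of *Sox6* than the other glia. *Tfap2a* was 0.682 (0.552 to 0.840) of the level in the other glia at E11.5 and 0.514 (0.425 to 0.618) at E12.5, and *Tfap2b* was 0.678 (0.582 to 0.788) and 0.510 (0.433 to 0.598). *Sox6* was 0.647 (0.452 to 0.918) and 0.648 (0.448 to 0.923). *Sox5* was higher in them, at 1.16 (1.05 to 1.28) and 1.35 (1.25 to 1.45). *Ets1* was 1.02 (0.722 to 1.45) at E11.5 and 1.65 (1.30 to 2.09) at E12.5, and the interval for *Foxd3* included 1 at either stage.

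Glia with a *Neurog1* UMI numbered 70 at E11.5 and 87 in the E12.5 library and had more of the border genes. *Tfap2a* was 1.79 (1.43 to 2.24) and 1.87 (1.49 to 2.33) times the level in glia without *Neurog1*. *Tfap2b* was 1.74 (1.48 to 2.04) and 2.06 (1.71 to 2.47) times, and *Pax3* 1.35 (1.14 to 1.61) and 1.49 (1.27 to 1.75) times. *Sox5*, at 0.781 (0.678 to 0.896) and 0.665 (0.567 to 0.776), and *Ets1*, at 0.595 (0.336 to 0.993) and 0.404 (0.199 to 0.734), were lower in them. The interval for *Foxd3* included 1 at either stage.

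Cells with UMIs of at least 2 of 6 cell cycle genes were called cycling. In neurons, cycling cells held *Pax3* at 1.82 (1.38 to 2.41) and 1.99 (1.71 to 2.32) times the level of the others at E11.5 and E12.5, and *Tfap2b* at 1.56 (1.27 to 1.92) and 1.67 (1.42 to 1.94) times. In glia *Tfap2b* was at 1.20 (0.913 to 1.60) and 1.30 (1.12 to 1.51) times, and *Pax3* at 1.28 (0.967 to 1.73) and 1.03 (0.917 to 1.15) times. *Tfap2a* in cycling glia was lower at E11.5, at 0.583 (0.439 to 0.786), and close to level at E12.5, at 1.07 (0.907 to 1.27). Cycling calls depend on depth, and the E11.5 cells were deeper.

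Single thinned cells rarely showed many of the 10 genes. Glia held on average 1.22 of them at E11.5 and 1.18 in the E12.5 library, and neurons 0.833 and 0.587. No member was seen in 25.5% and 24.3% of glia and in 42.2% and 57.6% of neurons. *Pax3* and *Sox5* were seen together in 13.0% (9.88 to 16.6) and 12.3% (10.5 to 14.3) of glia, where the product of their single shares was 11.4% and 11.999%, within the interval. *Tfap2b* and *Pax3* were seen together in 6.37% and 5.78% of glia and in 10.5% and 10.7% of cells with both *Sox10* and *Isl1*. The products were 5.42% and 4.13% in glia and 9.80% and 7.44% in cells with both. At 2000 UMIs a gene can be present and missed, so the means and the shares with a pair are low and the shares with no member are high.

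In the outside cells a different set of the genes was found. *Zic1* stood at 354 CPM (306 to 407) at E11.5 and 395 CPM (365 to 426) at E12.5, with a UMI in 82.0% and 73.0% of unthinned cells. The pericyte-like cluster held 92.1% of all *Zic1* UMIs at E11.5, and the mesenchymal-like cluster 91.6% at E12.5. *Ets1* stood at 234 CPM (195 to 278) at E11.5 and 63.6 CPM (52.0 to 77.0) at E12.5. The outside clusters at E11.5 were pericyte-like alone, and at E12.5 mostly mesenchymal-like, so this difference is between cell types as well as stages. *Snai2* was at 8.99 and 7.87 CPM on 5 and 13 UMIs. *Foxd3*, *Pax3* and the AP-2 pair had between 0 and 4 UMIs each.

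Markers of these cell types were also present at lower levels in the gated classes. The mesenchymal list summed to 198 CPM in glia at E11.5 and 500.1 CPM in the E12.5 library, against 825 and 4239 CPM in the outside cells. In glia, 3 of its 10 genes were at 0 at E11.5 (*Prrx1*, *Foxc1* and *Foxc2*) and 1 at E12.5 (*Twist1*). The pericyte list summed to 43.5 CPM in glia at either stage. With the outside-cluster cells left out, the ratio of glia to neurons was 6.56 (5.4002 to 8.03) and 7.18 (6.49 to 7.95) for *Sox5*, while that of *Ets1* moved as given above.

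Other crest genes were read from 2 lists. Of 35 further crest transcription factors, 16 could be compared at E11.5, with 9 higher in glia and 2 in neurons, and 18 at E12.5, with 10 and 3. Over all genes 15.9% and 9.48% were so at E11.5 and 19.8% and 12.3% in the E12.5 library, so the counts higher in neurons were near the share of all genes. Their median ratio of glia to neurons was 2.63 and 3.18. The highest ratios at E12.5 were those of *Sox8* at 29.7 and *Sox9* at 18.4, SoxE factors related to *Sox10*, of the BMP target *Id3* at 15.9 and of the Wnt effector *Lef1* at 7.10. The lowest were those of *Sox11* at 0.157, a SoxC factor of newborn neurons, with 246 CPM in glia and 1567 CPM in neurons, of *Mycn* at 0.258, of *Meis2* at 0.370 and of *Sox4* at 0.858.

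Of 20 crest effectors, which include receptors and cadherins of migrating crest, 15 could be compared at E11.5 and 17 in the E12.5 library, and 11 were higher in glia and 0 in neurons at either stage. The neuregulin receptor *Erbb3* had a ratio of 19.5 at E12.5, the endothelin receptor *Ednrb* 18.9, the myelin gene *Pmp22* 11.7 and *Cdh6* 9.42. The lowest ratios were those of *Cdh11* at 0.609 and *Cdh2* at 0.780. *Erbb3* and *Ednrb* are also glial markers. Between the stages, 0 of 18 compared factors were higher and 1 lower in glia at E12.5, and 2 of 17 effectors were higher and 0 lower. In neurons 0 of 13 factors were higher and 1 lower, and 1 of 16 effectors was higher and 1 lower. Over all genes 6.34% were higher and 1.13% lower in glia, and 6.03% and 1.67% in neurons, so counts this small do not set the lists apart.

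Over 27 clusters and 10283 candidate genes, the genes with the profile most like that of *Tfap2b* were *Gm32061* (Pearson r = 0.93), *Tfap2a* (0.90) and *Ezh2* (0.89). *Tfap2a* was nearest to *Tfap2b* (0.90), *Pax3* to *Car11* (0.91), *Sox5* to *Sntb1* (0.93) and *Sox6* to *Hmgb1* (0.89). The r with *Sox10* was 0.84 for *Sox5*, 0.71 for *Pax3*, 0.66 for *Sox6*, 0.52 for *Tfap2a* and 0.42 for *Tfap2b*. With *Isl1* it was -0.70, -0.02, -0.38, 0.30 and 0.28. These points share libraries, depth and cells of the same lineage, and r is given as a description.

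Genes on the opposite strand overlap several members, and the strand setting of the counting is not given in the sources used here, so their reads may not be separable. *Gm12688*, which overlaps *Foxd3*, had 172 UMIs at E11.5 and 267 in the E12.5 library and ratios of glia to neurons of 6.25 and 7.35, close to those of *Foxd3*. Its ratio of E12.5 to E11.5 in glia was 0.824 (0.653 to 1.04), less of a difference than that of *Foxd3*. *Gm26688*, which overlaps *Tfap2a*, had ratios of 0.719 and 1.18. *1110004F10Rik*, which overlaps *Sox6*, had 2943 and 5780 UMIs, many times the count of *Sox6*.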

How the data were processed

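Single-cell RNA-seq was analysed for 2 libraries of Tomato+ cells, 1 per stage. The authors deposited whole-number UMI counts per gene and cell barcode, not normalized, made from 10x 3′ reads with Cell Ranger (7.0 in the submitters' processing notes, 7.0.1 in the file headers) on mm39. Whether introns were counted is not given in the sources used here. From the counts, cells with over 10% mitochondrial UMIs, with under 2000 UMIs at E11.5 or under 1000 at E12.5, or with a doublet score of 0.2 or more (Scrublet in scanpy 1.11.5) were removed. The doublet cut took out 10 cells (1.19%) and 68 cells (1.91%). Of the cells kept at E12.5, 165 had under 2000 UMIs and were left out of thinned shares. Median depth was 11574 and 6137 UMIs.

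Levels were summed over cells and scaled to CPM. Ratios carry exact conditional Poisson intervals and shares exact Clopper-Pearson intervals, computed with scipy 1.17.1 at a level of 95%. With 1 library per group, no p-value was computed, and a gene was called at a ratio of 2 or more with at least 50 UMIs over both classes. Thinning drew 2000 UMIs per cell with random seed 1. Clusters (3000 variable genes, 30 principal components, 15 neighbours, Leiden resolution 1) were named where at least 3 fixed markers passed, by a rule set after the clusters had been seen. Profiles used 27 clusters of at least 30 cells and log2 of CPM plus 10. The scripts were tested on simulated counts. The 10 genes are those picked by symbol, and the further genes named are the 4 with the highest and the 4 with the lowest ratio of each list at E12.5 and the nearest profiles. The members and lists were chosen with earlier results of these data known. Alternatives covered the gate, clusters, filters, doublets, scaling, thinning, fold and UMI minimum. Leaving out gated cells of outside clusters and setting apart the mixed clusters were chosen after seeing the data.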

Additional observations from a re-analysis of the deposited data

How the results depend on the processing

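In neuron-like clusters *Sox6* had 5 UMIs at E12.5 and 0 at E11.5. Its stage ratio there was infinite, with an interval from 0.171 upward, so it gave no direction to set against the call in neurons. That ratio was left out of the recomputed ones. No called gene changed direction where a finite ratio was recomputed, while some ratios that were not called lay on either side of 1. Among these were glia to neurons for *Tfap2a* (0.652 to 1.78) and *Tfap2b* (0.592 to 1.63) at E11.5 and for *Zic1* at E12.5 (0.618 to 5.06), and E12.5 to E11.5 for *Pax3* (0.667 to 1.34) and *Sox5* (0.722 to 1.18) in neurons, and for *Tfap2a* in glia (0.872 to 1.07). Of 317 ratios recomputed, 56 moved by more than their counting interval and 261 did not. The moves were uneven over the alternatives. With clusters 15 of 27 moved, for thinned sums 13 of 29, and with neuron-like and neurogenic clusters joined 11 of 29. Under each change of the depth, mitochondrial or doublet filter 0 of 29 moved. Of 320 recomputed shares of cells, 145 moved, most of them where the thinning or the UMIs required of the gene were changed. The count of genes higher in glia, 3 at E11.5 and 4 at E12.5, became 5 and 7 when glia-like were set against neuron-like clusters. At E11.5 it was 5 at a fold of 1.5, 1 at a minimum of 200 UMIs and 1 for sums of thinned cells, where fewer UMIs remain. With a minimum of 20 UMIs, 1 gene (*Zic1*) was higher in neurons at E11.5. The count of genes apart between stages in glia, 1 in the report, was 0 with a gate of 2 UMIs, with clusters, with neuron-like and neurogenic clusters joined (chosen after seeing the data), at a fold of 3 and at 200 UMIs. The *Msx1* ratio stayed between 0.374 and 0.474 wherever it was recomputed, so apart from a fold of 3 the call was lost to the UMI minimum. The count was 2 for means over cells, without doublet removal, at a fold of 1.5, at 20 UMIs and with median-ratio scaling. In neurons the count of 2 became 1 with a gate of 2 UMIs, with clusters, with joined clusters, with lineage clusters alone and at a fold of 3. It was 4 at 20 UMIs, and 0 at 200 UMIs and for thinned sums. With neuron-like clusters the 1 gene was *Tfap2b*, at a ratio of 0.265, since *Zic1* and *Sox6* fell below the UMI minimum there. The cause was not tested beyond what each construction changes. Across alternatives the E12.5 ratio of glia to neurons ran from 1.495 to 14.4 for *Pax3* and from 0.879 to 4.42 for *Tfap2b*, with the highest value from clusters. The E12.5 to E11.5 ratio of *Foxd3* in glia ran from 0.378 to 0.628. Genes with few UMIs, *Snai2*, *Msx1* and *Zic1* in the lineage, could not be compared closely at this depth. No paired analysis was possible because each stage had 1 library.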

Other observations

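A cluster of 91 shallow cells at E11.5, with a median of 2840 UMIs and led by the embryonic globin gene *Hbb-y*, met 9 of the 12 glial markers. It was left unnamed, since its depth was far below the library median of 11574 UMIs and no glial marker was among its 10 leading genes. The erythroid list, which includes *Hbb-y*, also had more genes among those 10 than the glial list. The unnamed cluster held *Foxd3* at 128 CPM, and 17.0% of all *Foxd3* UMIs of the library. Of its cells, 45 were glia and 8 were neurons by the single-UMI definition. The globin and other erythroid markers summed to 16.6 CPM in all neurons at E11.5 and 575 CPM at E12.5. In the E12.5 library they summed to 12.4 CPM in glia and 7.54 CPM in cells with both transcripts. Cells with neither held 45.5 CPM and the outside cells 13.3 CPM.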
